A study of Mus musculus with 9 samples.

Results

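Among the 22046 protein_coding rows of the gene table (54532 rows in all), 20 genes were expressed at a higher level in both dendritic cell groups of leukemic spleens than in normal ones, and to a similar extent in both. These genes were chosen by their values: the lowest of the 6 leukemic samples was at least 3 FPKM and at least 1.5 times the highest normal sample, and the means of the 2 leukemic groups were within 2 times of each other. FPKM is the number of reads on a gene per kilobase of its length, scaled to the size of the library. Because every sample and every contrast was used to choose the genes, their levels are given as a description, and none of their differences was tested for support. Genes lowered alike by the mirror image of this rule numbered 83.

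Spleen cells of mice were sorted on day 15 into N-mDCs, T-DCs or T-mDCs, and RNA of 3 samples of each was sequenced. N-mDCs were mature conventional dendritic cells (cDCs) of healthy mice, T-mDCs were those of mice with T-cell acute lymphoblastic leukemia (T-ALL), and T-DCs, titled immature DCs in the sample labels, were sorted from leukemic spleens as CD11c+ cells low in MHCII. The leukemia came from bone marrow cells that carried a retrovirus for the intracellular domain of Notch1 (ICN1) and GFP. Its GFP+ cells were then given to female C57BL/6J or C57B6.SJL mice that were not irradiated, so the hosts kept their own blood and immune cells, and the labels do not say which strain or how many mice gave each sample, so differences between samples of a group may be technical. In bulk RNA, a larger share of one kind of cell and more RNA per cell cannot be told apart.

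The samples of a group were not equally alike. Reads on genes ranged from 15360815 to 18440913 per sample. Hemoglobin genes took 3.82% and 3.005% of the reads in T-DC samples 2 and 3 and 0.0422% in T-DC sample 1, against at most 0.405% in N-mDCs and 0.0140% in T-mDCs. Summed over 42 cell cycle genes, FPKM reached 372 to 461 in the normal samples, 344 in T-DC sample 1, 2828 and 3243 in the other T-DCs, and 645 to 848 in the mature leukemic samples. T-mDC samples 2 and 3 were nearly alike, with a chi-square per gene of 1.85 over genes of 20 to 200 reads where the other pairs within a group gave 8.11 or more, and they were kept as separate samples. Flt3, a cytokine receptor of the DC lineage, ranged from 44.4 to 89.1 FPKM in the mature groups and from 4.48 to 15.4 FPKM in T-DCs. Itgax, which encodes CD11c, was at 43.0 to 152 FPKM in T-DCs, and a list of 9 genes shared by conventional DCs summed to 1685 to 2606 FPKM there, against 10703 to 23165 FPKM in the mature groups. Cd3e, a T cell receptor subunit, did not exceed 1.52 FPKM in any sample, but other genes of the T lineage were higher. A list of 18 such genes, Cd3e among them, gave sums of 121, 213 and 177 FPKM for the normal samples. The sums were 54.8, 126 and 37.6 FPKM for T-DC samples 1 to 3, and those of the mature leukemic samples were 48.1, 72.5 and 69.6 FPKM.

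Several of the 20 genes have roles in cell division, the nuclear pore or the cell surface. Before a cell divides, its centromeres, the chromosome parts that the spindle holds, receive the histone variant CENP-A and build a kinetochore on it, and checkpoint kinases watch for damaged or stalled DNA. Nuclear pores control what enters and leaves the nucleus, and enzymes of the Golgi and the cell surface shape the sugars and the matrix that a migrating leukocyte meets. By function, as assigned by hand, 7 genes were placed in cell division and DNA damage, 2 in the nuclear pore and transport, 4 in transcription and chromatin, 2 in metabolism, 3 at membranes, glycans and the cell surface, and 2 were given no role.

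Promoter sequences are shown for 5 of the genes, because sequence at the start site is what genes that move together could share and the choice of genes did not use it. They were taken from RefSeq (build GRCm38.p6), which held a window from 250 bases before to 50 bases after the start site for 17 of the 20 genes. They are 3 genes of chromosome segregation and the 2 genes of other functions with the largest leukemic to normal ratios. Capitals mark a CCAAT box (CCAAT) and a cell cycle homology region, or CHR (TTTGAA), on either strand, both motifs known from promoters of genes used in cell division. Haspin lies at chr11:73138245-73138544 on the minus strand, Hjurp at chr1:88277530-88277829 on the minus strand, Mis12 at chr11:71019361-71019660 on the plus strand, Gk at chrX:85776770-85777069 on the minus strand and Mmp14 at chr14:54431348-54431647 on the plus strand.
Haspin: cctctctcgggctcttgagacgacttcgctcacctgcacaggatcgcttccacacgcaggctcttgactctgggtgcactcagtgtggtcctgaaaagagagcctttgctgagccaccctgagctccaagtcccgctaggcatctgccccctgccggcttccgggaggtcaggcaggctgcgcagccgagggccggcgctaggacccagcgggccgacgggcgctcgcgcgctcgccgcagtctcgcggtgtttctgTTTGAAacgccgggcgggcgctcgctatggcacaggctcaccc
Hjurp: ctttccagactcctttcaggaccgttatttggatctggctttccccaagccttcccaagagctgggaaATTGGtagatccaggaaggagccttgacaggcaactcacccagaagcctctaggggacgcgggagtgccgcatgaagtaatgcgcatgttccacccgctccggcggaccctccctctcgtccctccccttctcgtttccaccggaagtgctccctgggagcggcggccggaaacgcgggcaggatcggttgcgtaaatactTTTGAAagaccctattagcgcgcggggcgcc
Mis12: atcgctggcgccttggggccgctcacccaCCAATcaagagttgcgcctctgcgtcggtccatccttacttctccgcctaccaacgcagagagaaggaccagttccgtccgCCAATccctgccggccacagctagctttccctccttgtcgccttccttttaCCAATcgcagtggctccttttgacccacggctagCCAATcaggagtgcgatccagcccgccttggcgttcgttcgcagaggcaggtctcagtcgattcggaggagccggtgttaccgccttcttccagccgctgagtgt
Gk: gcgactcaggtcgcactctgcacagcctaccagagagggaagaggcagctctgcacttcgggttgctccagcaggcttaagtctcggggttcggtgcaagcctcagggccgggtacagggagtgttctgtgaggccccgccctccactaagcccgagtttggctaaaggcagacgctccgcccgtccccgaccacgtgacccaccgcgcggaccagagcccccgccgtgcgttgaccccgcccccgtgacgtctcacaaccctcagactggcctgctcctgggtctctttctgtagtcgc
Mmp14: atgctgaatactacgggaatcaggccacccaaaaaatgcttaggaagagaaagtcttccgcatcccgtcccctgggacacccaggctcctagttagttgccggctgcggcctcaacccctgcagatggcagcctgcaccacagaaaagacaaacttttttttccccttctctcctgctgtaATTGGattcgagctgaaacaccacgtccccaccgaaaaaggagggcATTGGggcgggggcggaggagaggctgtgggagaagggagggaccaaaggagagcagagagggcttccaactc

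Counting the first transcribed base as 1, the CHR letters began at 8 in Haspin and at 20 in Hjurp, and Hjurp also held a CCAAT box at -182. Mis12 held 4 CCAAT boxes, at -221, -140, -89 and -55, Mmp14 held 2, at -69 and -23, and Gk held neither motif. Over the 17 genes with a promoter, CHR letters were found in 7 (Haspin, Hjurp, Ndc1, Riox1, Zbtb5, Zfand4 and Zfp971), or 41.2%, against 14.5% of 8524 tested genes with a promoter and 17.9% of all 32851 windows. CCAAT was found in 10 of the 17 (58.8%), against 43.3% of tested genes and 37.4% of all windows. Among the 5 genes of cell division with a promoter, CHR was found in 2 and CCAAT in 3, so the CHR letters were not limited to genes of that function.

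In all, 12 motifs were searched on both strands, and the CHR and CCAAT box were among 4 added after the 20 genes were known. The other 2 of these, E2F (TTTGGCGC or TTTCCCGC) and CRE (TGACGTCA), were in none of the 17 windows and in 3.68% and 3.66% of tested genes. Of the 8 listed first, ISRE and AP-1 (TGANTCA) were in none, the E-box (CACGTG) was in 4 (23.5%, against 12.0% of tested genes) and the hypoxia element (ACGTG, which lies within the E-box) was in 7 (41.2%, against 29.8%). The C/EBP motif (TTNCNNAA) was in 7 (41.2%, against 35.9%), GAS (TTCNNNGAA) in 2 (11.8%, against 8.26%), and the glucocorticoid receptor element (ACANNNTGT) and NF-kB in 1 each (5.88%, against 4.90% and 7.47%). A match of letters is a description of the window and not a bound site, and with 17 genes each counts for 5.88%.

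Across the 20 genes, the mean of the 6 leukemic samples was 1.89 to 6.51 times the N-mDC mean, with a median of 3.07. Gk had the largest ratio (6.51) and Zbtb5 the smallest (1.89). Levels were mostly low to moderate: the leukemic mean was below 10 FPKM in 12 genes and above 20 FPKM in 5, and the N-mDC mean was below 3 FPKM in 11. The fewest reads behind a value were 51 in a leukemic sample and 9 in an N-mDC sample, both for Hist1h2bg. The genes lie on 13 chromosomes.

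**Figure D1:**
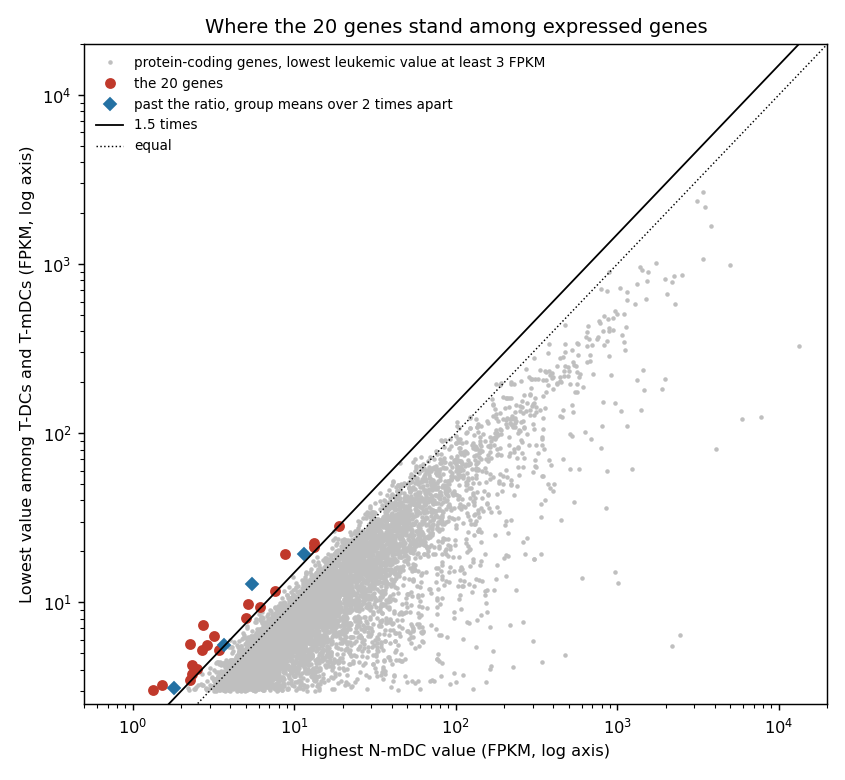
Each point is a protein-coding gene, placed by its highest N-mDC value (horizontal, FPKM, log axis) and its lowest value among the 6 leukemic samples (vertical, FPKM, log axis). Few genes lie above the solid line of 1.5 times: the 20 genes (red circles) and 4 genes whose leukemic group means were over 2 times apart (blue diamonds), of 6728 genes with a lowest leukemic value of at least 3 FPKM.

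The thresholds cut through a continuous range. Just inside the ratio of 1.5 stood Usp1 (1.51), Nxpe4 (1.52), Riox1 (1.53), Zbtb5 (1.54) and Mis12 (1.54), and just outside stood Pgam1 (1.49), Taco1 (1.49), Zfp143 (1.44), Crkl (1.42) and Dgcr8 (1.41). Pdik1l, Hspb6 and Zswim1 passed the ratio but had lowest leukemic values of 2.81, 2.70 and 2.46 FPKM. A further 4 genes passed both limits and had T-DC means more than 2 times their T-mDC means: Kctd9 (2.06), Fkbp5 (2.10), Bard1 (2.14) and Fam53b (2.59). No gene was left out for the opposite imbalance.

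In the limma fit over the 12746 genes with at least 1 FPKM in at least 3 samples, all 20 genes were called higher in T-DCs than in N-mDCs (adjusted p below 0.05), as were 6.10% of all genes tested. In T-mDCs against N-mDCs, 7 of the 20 were called higher (Gk, Zfand4, Gcnt1, Cdk6, Nutf2-ps1, Gatm and Zdhhc6), where 0.690% of all genes were. All 6 leukemic samples stood above all N-mDC samples in 6.87% of genes tested and below them in 6.66%. The rule used these contrasts, so the counts are not evidence about the genes. Calls in T-DCs fell to 14 of 20 without T-DC sample 2, where 248 of all 12746 genes were called higher. They fell to 14 also in a fit of only T-DCs and N-mDCs (261 of all genes). Fewer still were called without T-DC samples 2 and 3, which leaves 1 T-DC sample. Over the alternatives, the T-DC log2 fold change went as low as 0.88 for Haspin and 0.54 for Ndc1, against 2.10 and 1.35 with all samples. Calls in T-mDCs fell to 1 with T-mDC samples 2 and 3 averaged as 1 sample or with either left out (7 or 8 of all genes). They rose to 18 without T-DC sample 1 (441 of all genes) and to 18 in a fit of only T-mDCs and N-mDCs (362 of all genes). Calls in T-mDCs thus moved with the T-DC samples that entered the fit.

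The 7 genes of cell division and DNA damage had leukemic means 2.30 to 6.12 times the N-mDC mean. Gene positions are those of the gene table, in mm10. Hjurp (chr1:88262471-88277633, minus strand), the chaperone that places CENP-A at centromeres, had FPKM values of 12.9, 13.3 and 12.997 among N-mDCs, 32.7, 40.9 and 45.5 among T-DCs and 21.2, 22.2 and 22.2 among T-mDCs, in the order of samples 1 to 3 as in all lists of values that follow. Its T-DC samples all stood above its T-mDC samples, and these above the N-mDC samples, which differed by little. Mis12 (chr11:71019611-71027371, plus strand), a subunit of the kinetochore complex of the same name, had FPKM values of 5.92, 4.74 and 6.09 among N-mDCs, 9.41, 19.5 and 18.9 among T-DCs and 10.04, 10.3 and 9.52 among T-mDCs. T-DC sample 1 was the lowest leukemic sample, close to the T-mDCs, while T-DC samples 2 and 3 stood clear of all others.

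Haspin (chr11:73135485-73138294, minus strand), a kinase that marks histone H3 in mitosis so that the chromosomal passenger complex can bind, had the largest ratio of this group (6.12). It had FPKM values of 1.52, 1.44 and 1.02 among N-mDCs, 3.26, 14.5 and 13.7 among T-DCs and 5.599, 6.09 and 5.59 among T-mDCs. T-DC sample 1 was the lowest leukemic sample and lay below every T-mDC, at 0.231 times the mean of the other T-DCs. Haspin has a single exon, and the whole gene lies within the span of Itgae, an integrin gene of cDC1, on the opposite strand, with no exon base in common. Itgae had FPKM values of 6.23, 2.37 and 3.16 among N-mDCs, 5.47, 1.49 and 0.532 among T-DCs and 16.7, 13.7 and 14.2 among T-mDCs. T-DC samples 2 and 3 had more Haspin and less Itgae than T-DC sample 1, while T-mDCs had more of both genes than N-mDCs. The part of Itgae reads in the Haspin values was not tested.

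Cdk6 (chr5:3341485-3531008, plus strand), a kinase that D-type cyclins activate in G1, had FPKM values of 2.05, 1.51 and 2.33 among N-mDCs, 4.26, 5.34 and 6.31 among T-DCs and 7.44, 8.01 and 7.85 among T-mDCs. All T-mDCs lay above all T-DCs, the opposite of Hjurp. Usp1 (chr4:98923810-98935543, plus strand), which removes ubiquitin from FANCD2 and PCNA during DNA repair, had the highest leukemic mean of the 20 genes (39.6 FPKM) and had FPKM values of 18.7, 14.1 and 18.8 among N-mDCs, 28.3, 57.3 and 61.996 among T-DCs and 28.5, 29.4 and 32.2 among T-mDCs. T-DC sample 1 and T-mDC sample 1 were at nearly the same level, and T-DC samples 2 and 3 stood apart above all others.

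Etaa1 (chr11:17938756-17953875, minus strand), an activator of the ATR kinase at stalled forks, had FPKM values of 1.68, 2.12 and 2.5004 among N-mDCs, 4.78, 6.15 and 7.82 among T-DCs and 4.47, 4.03 and 4.57 among T-mDCs. Every T-DC lay above every T-mDC, although the nearest samples of both groups were close. Hist1h2bg (chr13:23571396-23572013, plus strand), a replication-dependent gene of histone H2B, had FPKM values of 1.35, 0.905 and 2.67 among N-mDCs, 5.24, 5.32 and 14.9 among T-DCs and 5.49, 9.46 and 8.09 among T-mDCs. These values rest on 13, 9 and 30 reads in N-mDCs, 58, 51 and 140 in T-DCs and 64, 113 and 92 in T-mDCs, so it is the least precisely measured of the 20. Of its 50-base stretches, 49.7% also occur in other genes, most in Hist1h2bc, and how reads shared by both were counted is not given in the sources used here.

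**Figure D2:**
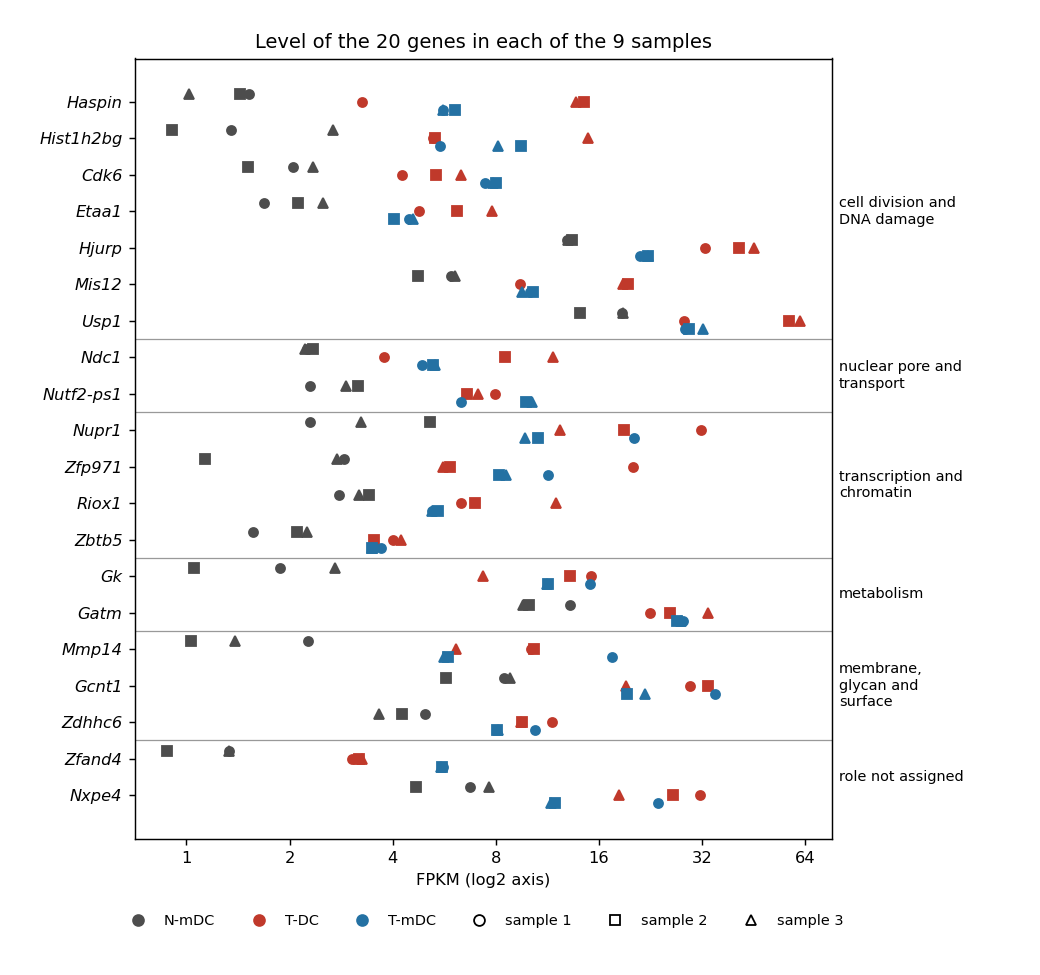
Level of each of the 20 genes (FPKM, log2 axis) in the 9 samples, grouped by function, with color for the group and shape for the sample number. In every gene the N-mDC points lie to the left of all leukemic points, and in Haspin, Mis12, Usp1 and Ndc1 the first T-DC sample lies apart from the other T-DCs.

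At the nuclear pore, Ndc1 (chr4:107367784-107416346, plus strand), a transmembrane nucleoporin that anchors the pore, had FPKM values of 2.25, 2.33 and 2.23 among N-mDCs, 3.76, 8.49 and 11.8 among T-DCs and 4.87, 5.24 and 5.3003 among T-mDCs. N-mDCs varied little (2.27 ± 0.0570 FPKM, SD, n = 3), while T-DC sample 1 was at 0.372 times the mean of the other T-DCs. Nutf2-ps1 (chr19:53588204-53589067, minus strand), annotated as protein_coding despite its name, is a single-exon copy of Nutf2, the import factor of Ran, and had FPKM values of 2.29, 3.16 and 2.93 among N-mDCs, 7.95, 6.57 and 7.09 among T-DCs and 6.31, 9.82 and 10.2 among T-mDCs. Of its 50-base stretches 96.1% also occur in Nutf2, so its value is uncertain. Nutf2 itself had FPKM values of 11.9, 12.9 and 9.504 among N-mDCs, 10.02, 23.1 and 36.2 among T-DCs and 14.4, 13.4 and 13.7 among T-mDCs, with T-DC sample 1 inside the N-mDC range, unlike Nutf2-ps1.

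Of the 4 genes of transcription and chromatin, Nupr1 (chr7:126623249-126630861, minus strand), a small chromatin protein induced by stress, had FPKM values of 2.29, 5.14 and 3.24 among N-mDCs, 31.8, 18.9 and 12.3 among T-DCs and 20.2, 10.6 and 9.75 among T-mDCs. The first sample was the highest of its group in both leukemic groups, at 2.04 and 1.98 times the mean of the other samples. Zfp971 (chr2:178023284-178034022, plus strand), a zinc finger gene, had FPKM values of 2.89, 1.13 and 2.75 among N-mDCs, 20.1, 5.87 and 5.62 among T-DCs and 11.4, 8.18 and 8.54 among T-mDCs. T-DC sample 1 was 3.50 times the mean of the other T-DCs, the widest gap upward of any of the 20 genes. Of the 50-base stretches of Zfp971, 51.1% occur in 1 or more of 51 other genes. Zfp968 holds the most (28.2%) and did not exceed 0.0848 FPKM, and the levels of the others are not given here.

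Riox1 (chr12:83950608-83952951, plus strand), an oxygenase that hydroxylates a ribosomal protein, had FPKM values of 2.78, 3.42 and 3.196 among N-mDCs, 6.31, 6.96 and 11.97 among T-DCs and 5.22, 5.41 and 5.22 among T-mDCs. All T-DCs lay above all T-mDCs, whose samples were nearly equal. Its single exon shares 31.9% of its bases with the antisense gene Gm26571, which did not exceed 0.335 FPKM. Zbtb5 (chr4:44991242-45012412, minus strand), a zinc finger protein of a family of repressors, had FPKM values of 1.56, 2.11 and 2.25 among N-mDCs, 4.003, 3.52 and 4.23 among T-DCs and 3.704, 3.49 and 3.47 among T-mDCs. It had the narrowest range over the leukemic samples, 1.22 times from lowest to highest.

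Both metabolic genes were at nearly equal levels in the 2 leukemic groups. Gk (chrX:85701937-85776819, minus strand), glycerol kinase, which makes glycerol 3-phosphate for lipid synthesis, had FPKM values of 1.88, 1.05 and 2.71 among N-mDCs, 15.2, 13.1 and 7.36 among T-DCs and 15.1, 11.4 and 11.3 among T-mDCs. The groups were far apart, with the lowest leukemic sample 2.71 times the highest N-mDC. Gatm (chr2:122594467-122611303, minus strand), which catalyses the first step of creatine synthesis from arginine and glycine, had FPKM values of 13.1, 9.996 and 9.62 among N-mDCs, 22.5, 25.7 and 33.2 among T-DCs and 28.2, 27.04 and 27.8 among T-mDCs. The T-DC mean was 0.946 times the T-mDC mean for Gk and 0.982 times for Gatm.

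At the membrane and cell surface, Mmp14 (chr14:54431612-54445364, plus strand), a membrane-bound matrix metalloprotease, had FPKM values of 2.26, 1.03 and 1.39 among N-mDCs, 10.1, 10.4 and 6.13 among T-DCs and 17.5, 5.81 and 5.67 among T-mDCs. T-mDC sample 1 was the highest of all, at 3.05 times the mean of the other T-mDCs, and without it the T-mDCs lay below every T-DC. Gcnt1 (chr19:17326141-17356667, minus strand), the enzyme that branches O-glycans into the core 2 form from which selectin ligands are built, had FPKM values of 8.47, 5.72 and 8.79 among N-mDCs, 29.4, 33.3 and 19.2 among T-DCs and 34.8, 19.3 and 21.8 among T-mDCs. Its leukemic groups overlapped, with a T-DC mean 1.08 times the T-mDC mean. Zdhhc6 (chr19:55271291-55316032, minus strand), a palmitoyltransferase of the endoplasmic reticulum, had FPKM values of 4.99, 4.27 and 3.64 among N-mDCs, 11.7, 9.56 and 9.49 among T-DCs and 10.4, 8.08 and 8.13 among T-mDCs, again with overlapping leukemic groups. Of its exon bases, 4.88% are shared with Acsl5 on the opposite strand and 27.1% lie within the span of Acsl5. Acsl5 had FPKM values of 28.4, 34.1 and 28.1 among N-mDCs, 47.2, 47.1 and 51.6 among T-DCs and 41.6, 40.4 and 39.7 among T-mDCs. The part of Acsl5 reads in the Zdhhc6 values was not tested.

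No role was assigned to Zfand4 (chr6:116264222-116330302, plus strand) and Nxpe4 (chr9:48162023-48400025, plus strand). Zfand4 had FPKM values of 1.33, 0.876 and 1.33 among N-mDCs, 3.04, 3.19 and 3.26 among T-DCs and 5.61, 5.58 and 5.53 among T-mDCs. It had the lowest single leukemic value of the 20 genes, very little spread within each leukemic group, and T-mDCs above all T-DCs. Nxpe4 had FPKM values of 6.71, 4.69 and 7.64 among N-mDCs, 31.5, 26.3 and 18.4 among T-DCs and 23.9, 11.9 and 11.6 among T-mDCs, with the first sample highest in both leukemic groups.

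**Figure D3:**
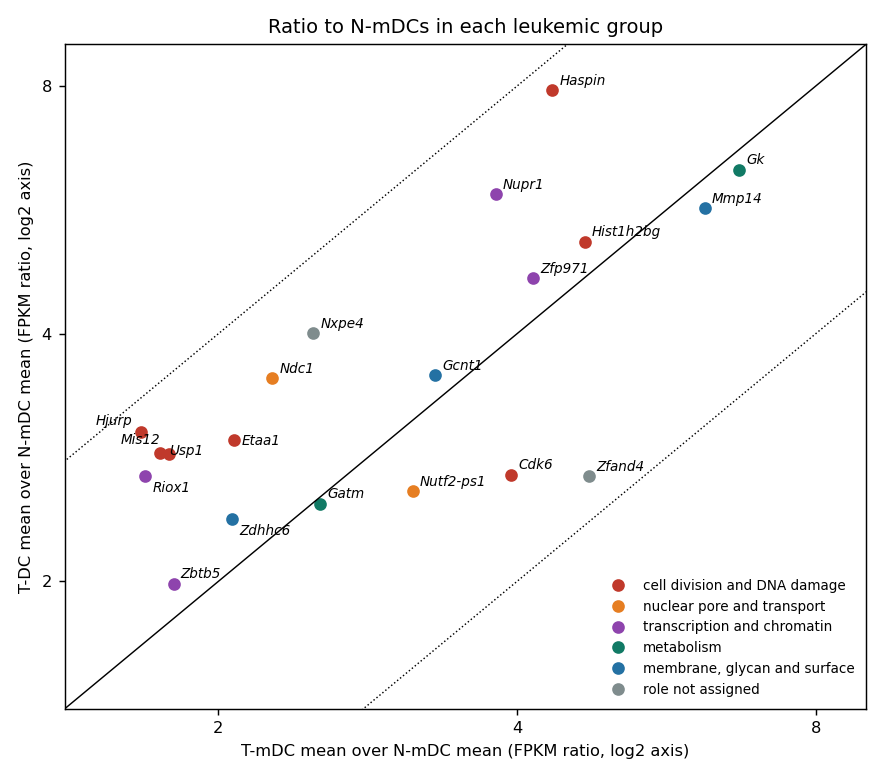
Mean of T-DCs (vertical) and of T-mDCs (horizontal), each over the N-mDC mean (ratios of FPKM, log2 axes), for the 20 genes colored by function. The solid line marks equal levels and the dotted lines the limits of 2 times; 14 genes lie above the solid line and 6 below it, with Haspin and Hjurp nearest the upper limit and Zfand4 nearest the lower.

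Although the rule held the leukemic groups within 2 times of each other, they were not equal in every gene. The T-DC mean was 0.568 to 1.82 times the T-mDC mean, with a median of 1.14, and was the higher in 14 genes and the lower in 6. By the limma log2 fold change, T-DCs were also the higher in 14 genes, but in 9 with values rescaled to TPM. The samples of the leukemic groups overlapped in 15 genes, all T-DCs were above in Etaa1, Hjurp and Riox1 (as in 16.8% of all genes tested), and all were below in Zfand4 and Cdk6 (as in 18.1%). In the limma fit, Hjurp was called higher and Zfand4 lower in T-DCs than in T-mDCs, where 5.44% of all genes tested were called higher and 8.79% lower, and neither was called with T-mDC samples 2 and 3 averaged. Without T-DC sample 1, 7 of the 20 were called higher and 1 lower, where 2338 of all 12746 genes were called higher and 2137 lower. Genes of cell division and DNA damage had a median T-DC to T-mDC ratio of 1.60.

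T-DC samples differed from each other in many of the genes, by small margins in some. Over all genes of 20 to 200 reads, T-DC sample 1 differed from T-DC samples 2 and 3 by a chi-square per gene of 28.4 and 36.1, against 11.3 between samples 2 and 3. The share of all genes with T-DC sample 1 below or above both others was not computed, so the next counts have no baseline. T-DC sample 1 was below both others in 11, above both in 6 and between them in 3, and the 11 included all 7 genes of cell division and DNA damage. The sum of the cell cycle list moved with this: it was lower in T-DC sample 1 (344 FPKM) than in any N-mDC. Mki67, a proliferation marker, was at 8.25 FPKM in T-DC sample 1, 247 and 183 FPKM in T-DC samples 2 and 3, 8.50 to 8.80 FPKM in normal samples and 21.9 to 36.2 FPKM in T-mDCs. The rule itself placed the 7 genes above every N-mDC in T-DC sample 1, so nothing is read from that beside the cell cycle sum. Erythroid markers moved with the same samples, since 17 genes summed to 669 FPKM in T-DC sample 1, 61608 and 44996 FPKM in T-DC samples 2 and 3, 127 to 5426 FPKM in the normal samples and 45.2 to 217 FPKM in T-mDCs. Neutrophil markers did so too, with 16 genes summed to 47.3 FPKM in T-DC sample 1 and 4645 and 1643 FPKM in the other T-DCs. Their sums were 100 to 803 FPKM in N-mDCs and 24.0 to 28.1 FPKM in T-mDCs. The part of these cells in the levels of the 20 genes was not tested.

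The genes for which T-DC sample 1 was the highest T-DC were Gk, Nupr1, Zfp971, Nxpe4, Nutf2-ps1 and Zdhhc6. In Gk, Nupr1, Zfp971, Nxpe4 and Zdhhc6, T-mDC sample 1 was also the highest T-mDC. Several marker lists were highest in the same samples. For red pulp macrophages, 13 genes summed to 4221 FPKM in T-DC sample 1 against 1385 and 836 FPKM in the other T-DCs, and to 1971 FPKM in T-mDC sample 1 against 570.3 and 570.0 FPKM in the other T-mDCs. In N-mDCs, where these 5 genes were lowest, the same markers summed to 2488 to 4854 FPKM. Monocyte markers (14 genes) summed to 2721 FPKM in T-DC sample 1 against 1763 and 1122 FPKM in the other T-DCs, and to 887 FPKM in T-mDC sample 1 against 385 and 379 FPKM. Their sums in N-mDCs were 1649 to 2307 FPKM, above every T-mDC. The lists of cDC2, pDCs and of stroma and endothelium were likewise highest in the first sample of both leukemic groups, with sums of 654, 243 and 112 FPKM in T-DC sample 1 and 389, 183 and 45.5 FPKM in T-mDC sample 1. Among N-mDCs these lists summed to 579 to 601, 321 to 712 and 24.0 to 29.0 FPKM. The part of such cells in the levels of the 5 genes was not tested.

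**Figure D4:**
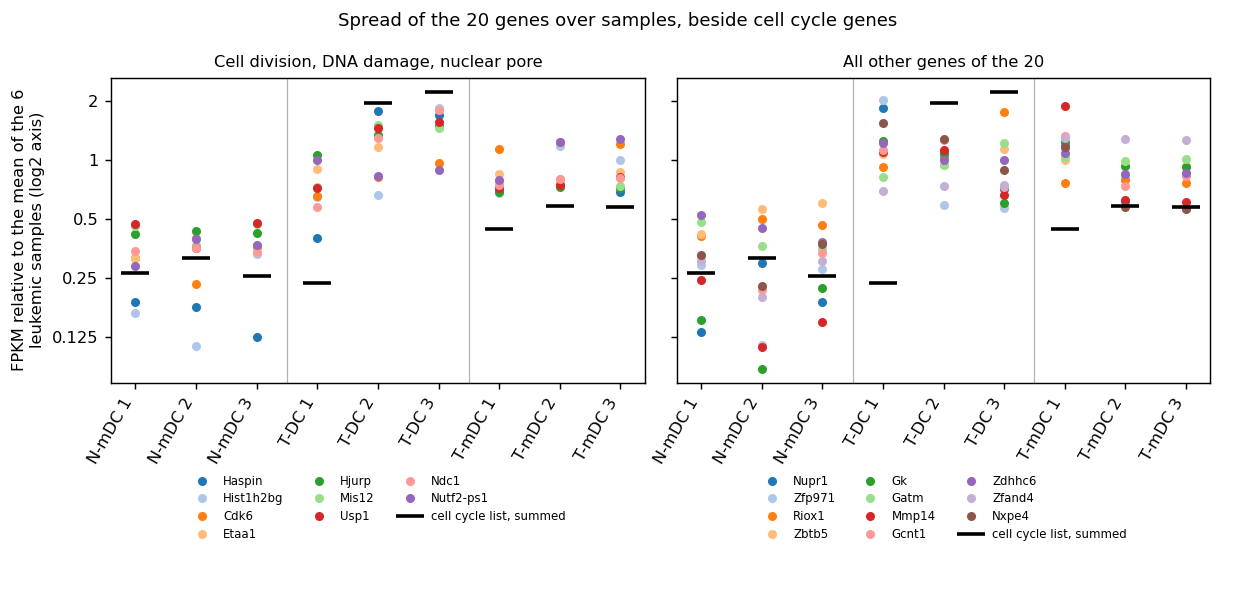
FPKM of each gene relative to its mean over the 6 leukemic samples (log2 axis), by sample, for the genes of cell division, DNA damage and the nuclear pore (left) and for the others (right). Black bars show the sum of 42 cell cycle genes on the same scale; the bar in T-DC sample 1 lies near the N-mDC bars and those in the other T-DCs are the highest, and the rule fixed that each gene lies above its N-mDC points in every leukemic sample.

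None of the 20 genes is in any of the 22 pathway lists or 17 marker lists used here. For the cell cycle list, calls depended on which T-DC samples entered the fit. With all samples, limma called none of 42 genes in T-DCs or in T-mDCs against N-mDCs (31 and 3 at an unadjusted p below 0.05, and none by limma voom), with median log2 fold changes of 1.96 and 1.02, where the medians over all genes were 0.05 and 0.03. Without T-DC sample 1, all 42 were called higher in T-DCs and 26 in T-mDCs (of all 12746 genes, 2611 and 441 were). Without T-DC samples 2 and 3 instead, the median in T-DCs was -0.18 and 6 of 42 were positive. The T-mDC median was 1.02 in each of these fits, so calls there moved with the spread that the 3 groups share.

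A further 12 lists of genes that work with the 20 were written after the 20 were known. Over all of them, 23 of 202 genes tested were higher and 17 lower in T-DCs, and 3 were higher and 3 lower in T-mDCs, against N-mDCs. Of all genes tested, 6.10% were higher and 10.3% lower in T-DCs, and 0.690% and 1.52% in T-mDCs. The count of each list below is to be read beside these shares. The higher count in T-DCs became 110 without T-DC sample 1, where 2611 of all 12746 genes were called higher. It fell below 23 without T-DC samples 2 and 3, which leaves 1 T-DC sample. In T-mDCs the counts became 27 and 13 without T-DC sample 1 (441 and 581 of all genes). They became 22 and 12 in a fit of only T-mDCs and N-mDCs (362 and 488 of all genes). They became 0 and 1 with T-mDC samples 2 and 3 averaged or with either left out (7 or 8 of all genes higher and 15 to 17 lower). The T-mDC calls of Cdkn2a, Slc6a8 and Cdkn1a given below were thus lost unless these nearly alike samples were counted as 2. Of the partners given with values below, Agpat4, Ass1, Atf3, Fancf, Mmp12, Nup107 and, in T-DCs, Cdkn1a kept their calls under every alternative that tested them. Incenp kept its call in 7 of 19 alternatives, C1galt1 in 7 of 19, Slc6a8 in 8 of 18 and Cdkn1a in T-mDCs in 11 of 19. Cdkn2a kept it in 13 of 19 in T-DCs and 16 of 19 in T-mDCs, and Spn in 13 of 19. Some calls named below without values held in fewer: Nup188 and Nup214 in 4 of 19, Mgll in 4 of 18, E2f4, B4galt1 and Nup62 in 5 of 19 and Hspa5 in 6 of 19.

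Among 25 genes of CENP-A deposition and the kinetochore, limma called 1 higher in T-DCs (Mis18a) and none in T-mDCs (2 at an unadjusted p below 0.05, none by limma voom), with median log2 fold changes of 1.16 and 0.56. Mis18a, which prepares centromeres for Hjurp, had FPKM values of 6.43, 6.38 and 5.42 among N-mDCs, 9.71, 10.8 and 12.7 among T-DCs and 8.33, 8.04 and 8.34 among T-mDCs. Its T-DC log2 fold change was 0.77 ± 0.16 (SE; limma adjusted p = 0.0138). Cenpa, the histone that Hjurp carries, had FPKM values of 9.29, 9.85 and 8.46 among N-mDCs, 4.39, 41.3 and 48.8 among T-DCs and 8.08, 12.7 and 13.2 among T-mDCs. In T-DC sample 1 it lay below every N-mDC. All 25 were called higher in T-DCs without T-DC sample 1, and none without T-DC samples 2 and 3, where the median was -0.21.

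Of 10 genes of the chromosomal passenger complex and cohesin protection, the partners of Haspin, Incenp was called higher in T-DCs and no gene in T-mDCs (1 at an unadjusted p below 0.05, none by limma voom). Incenp, the scaffold of that complex, had a T-DC log2 fold change of 1.76 ± 0.50 (SE; limma adjusted p = 0.0444), which was 0.39 and not called without T-DC samples 2 and 3. Aurkb, the kinase of the complex, had FPKM values of 6.101, 8.201 and 5.44 among N-mDCs, 5.42, 56.7 and 62.6 among T-DCs and 14.04, 19.8 and 19.8 among T-mDCs. In T-DC sample 1 its level was that of the lowest N-mDC. Without T-DC sample 1, 8 of the 10 were called higher in T-DCs and 7 in T-mDCs.

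Of 17 genes of the CDK4/6 and RB axis, 4 were higher (Ccnd3, Cdkn2d, Rb1 and E2f4) and 4 lower (Ccnd1, Cdkn2a, Cdkn2b and Cdkn1a) in T-DCs. The D-type cyclins that bind Cdk6 went opposite ways, with T-DC log2 fold changes of 1.79 ± 0.31 for Ccnd3 (SE; limma adjusted p = 0.00751) and -2.66 ± 0.40 for Ccnd1 (SE; limma adjusted p = 0.00435). Cdkn2a, which encodes inhibitors of CDK4 and CDK6 and a stabilizer of p53, had FPKM values of 1.91, 2.86 and 2.21 among N-mDCs, 1.0004, 1.05 and 0.506 among T-DCs and 7.77, 9.18 and 10.1 among T-mDCs. It fell in T-DCs (log2 fold change -0.85, limma adjusted p = 0.0220) and rose in T-mDCs (1.59, limma adjusted p = 0.0101), and the leukemic groups differed by -2.44 (limma adjusted p = 0.000955). The T-mDC call of Cdkn2a was lost with T-mDC samples 2 and 3 averaged or with either left out. Cdkn1a, which encodes the inhibitor p21, had FPKM values of 38.4, 44.6 and 58.8 among N-mDCs, 12.6, 15.4 and 7.17 among T-DCs and 12.2, 15.4 and 15.7 among T-mDCs, and its log2 fold change was -1.96 in T-DCs (limma adjusted p = 0.00353) and -1.63 in T-mDCs (limma adjusted p = 0.0263). Cdk4, the sister kinase of Cdk6, was called in neither. In Cdkn2a, as in Cdk6, all T-mDCs lay above all T-DCs.

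Of 26 genes of ATR activation and the Fanconi pathway, which hold the partners of Etaa1 and Usp1, Rad9a and Fancf were higher in T-DCs and none was called in T-mDCs (3 at an unadjusted p below 0.05, none by limma voom). Fancf, a subunit of the complex that ubiquitinates FANCD2, had a T-DC log2 fold change of 1.22 ± 0.18 (SE; limma adjusted p = 0.00429). Wdr48, the subunit that activates Usp1, had FPKM values of 5.83, 3.04 and 4.97 among N-mDCs, 6.15, 5.67 and 5.98 among T-DCs and 5.198, 5.52 and 5.93 among T-mDCs, and was called in neither group.

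Of 31 genes of the nuclear pore and Ran transport, 6 were higher in T-DCs (Nup188, Nup107, Nup133, Nup62, Nup214 and Rangap1), none was lower, and none was called in T-mDCs (5 at an unadjusted p below 0.05, none by limma voom). All 31 had a positive log2 fold change in T-mDCs (median 0.41) and 30 in T-DCs (median 0.74). Nup107, a scaffold subunit of the pore, had the smallest adjusted p of these in T-DCs (log2 fold change 1.20 ± 0.20, SE; limma adjusted p = 0.00629). Without T-DC sample 1 the T-DC count became 24, and without T-DC samples 2 and 3 it became 1. None of the 6 other H2B genes tested was called in either group (1 and 0 at an unadjusted p below 0.05, none by limma voom), although all 6 were called in T-DCs without T-DC sample 1.

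The partners of the metabolic genes did not move in 1 direction. Of 16 genes of glycerol and glycerolipid metabolism, Mgll and Agpat4 were higher and Gpd1l and Gpat4 lower in T-DCs, and none was called in T-mDCs (1 at an unadjusted p below 0.05, none by limma voom). Agpat4, an acyltransferase that works downstream of glycerol 3-phosphate, had a T-DC log2 fold change of 1.45 ± 0.21 (SE; limma adjusted p = 0.00366). Of 10 genes of creatine and arginine metabolism, Ass1, which makes the precursor of arginine, was lower in T-DCs (-2.06 ± 0.17, SE; limma adjusted p = 0.000540). Slc6a8, the creatine transporter, was higher in T-mDCs (0.96 ± 0.18, SE; limma adjusted p = 0.0375). This call too was lost with T-mDC samples 2 and 3 averaged or with either left out.

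Of 17 genes of O-glycan synthesis and selectin ligands, C1galt1, B4galt1, St3gal1 and Spn were higher in T-DCs and none was called in T-mDCs (5 at an unadjusted p below 0.05, none by limma voom), and none was called in T-DCs without T-DC samples 2 and 3. C1galt1 makes the core 1 glycan on which Gcnt1 acts, and its log2 fold change was 1.15 ± 0.30 in T-DCs (SE; limma adjusted p = 0.0332) and 0.14 in T-mDCs (limma adjusted p = 0.850). Spn, or CD43, a mucin that carries these glycans, had FPKM values of 18.9, 33.9 and 38.04 among N-mDCs, 249, 145 and 129 among T-DCs and 72.1, 15.98 and 15.7 among T-mDCs. Gcnt1 was thus high in both leukemic groups and Spn in T-DCs and in T-mDC sample 1.

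Among 16 metalloproteases and their inhibitors, Mmp12 and Mmp13 were lower in both leukemic groups, and Adam8 and Adam19 were lower and Adam10 higher in T-DCs. Mmp12, an elastase of macrophages, fell by 3.23 in T-DCs (limma adjusted p = 0.000389) and by 2.34 in T-mDCs (limma adjusted p = 0.00438) on the log2 scale. Timp2, an inhibitor that binds Mmp14, was called in neither group. Of 10 genes of the stress response around Nupr1, Atf3, Sesn2 and Hspa5 were lower in T-DCs and none was called in T-mDCs (5 at an unadjusted p below 0.05, none by limma voom). Atf3, a stress-induced transcription factor, had FPKM values of 966, 945 and 895 among N-mDCs, 77.1, 44.7 and 15.2 among T-DCs and 161, 370.4 and 382 among T-mDCs. Of 19 palmitoyltransferases and cofactors, Zdhhc5 and Zdhhc24 were higher and Zdhhc18, Zdhhc23 and Selenok, the cofactor of Zdhhc6, were lower in T-DCs, and none was called in T-mDCs (4 at an unadjusted p below 0.05, none by limma voom).

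**Figure D5:**
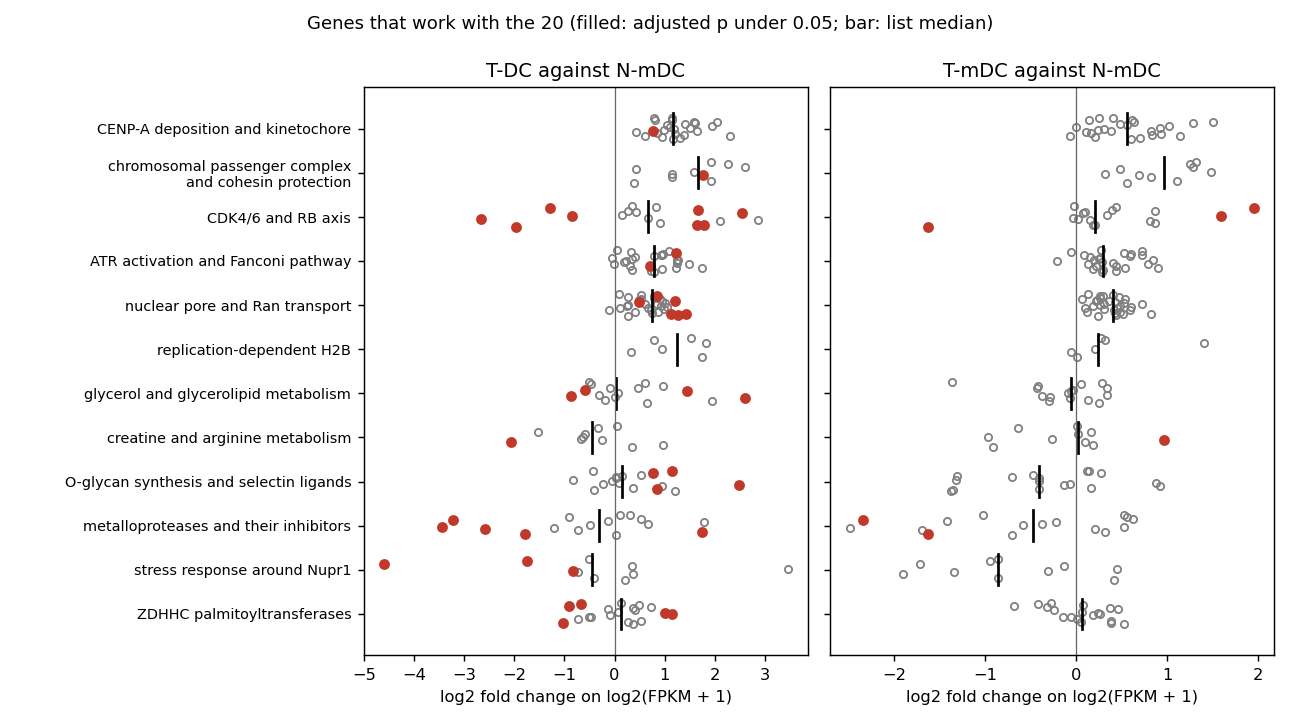
Log2 fold changes on log2(FPKM + 1) of the genes in the 12 lists, against N-mDCs, in T-DCs (left) and T-mDCs (right). Filled points passed the limma threshold and the black bar is the list's median; medians of the centromere and passenger complex lists are 1.16 and 1.67 in T-DCs and 0.56 and 0.97 in T-mDCs.

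The structure of the genes was not used by the rule. In 4 of the 20 (Haspin, Hist1h2bg, Nutf2-ps1 and Riox1), or 20%, every annotated transcript has a single exon, against 1.72% of 6727 protein_coding genes with at least 3 FPKM in all leukemic samples and 2.17% of 10718 tested. Of all 233 single-exon genes tested, limma called 9.87% higher in T-DCs and 2.58% in T-mDCs against N-mDCs. The shares over all protein_coding genes tested were 6.72% and 0.672%. Lower calls were 11.6% and 0.858% of the single-exon genes, against 10.5% and 1.36%. Whether reads were counted by strand is not given in the sources used here. In 9 of the 20 genes, under 1% of 50-base stretches occurred in any other gene, and in 6 over 10% did.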

How the data were processed

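The authors deposited FPKM for 54532 genes in 9 samples, 1 column per sample, on the build mm10 per the submitters' processing notes. The aligner, annotation, strand setting and treatment of reads with several positions are not given in the sources used here. The product of FPKM and gene length came out as whole reads for all values (100%, within 0.01 of a whole number), and 1 read per kilobase was worth 0.0517 to 0.0659 FPKM. Intervals from depth would cover counting error only.

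Genes were chosen with the rule given at the opening. The members and lists were chosen with earlier results of these data known, the 12 lists of partner genes (241 genes) and 4 of the 12 motifs after the members were known, and functions were assigned by hand. All 20 members are named; other genes are named where a call, a marker or the threshold concerns them. The 12746 genes that reached 1 FPKM in at least 3 samples entered, as log2(FPKM + 1), 1 fit of the 3 groups with limma 3.58.1 in R 4.3.3 (eBayes with trend), with p-values adjusted by the Benjamini-Hochberg method at 0.05. Fold changes on this scale understate the change of low genes. The fit was also run on simulated data of independent samples with the same spread in every group. Such data do not hold the unequal T-DC samples or the nearly alike T-mDC samples 2 and 3, so nothing is read from that run. Exons, shared stretches of 50 bases and promoter motifs were computed in Python 3.11.15 (pandas 2.3.3, numpy 2.4.6) from GENCODE M21 and RefSeq annotation of GRCm38; figures were drawn with matplotlib 3.10.9. Of the 20 members, 18 had the same start and end in GENCODE M21 as in the gene table (all but Gcnt1 and Nutf2-ps1). Alternatives were another pseudocount, filters, scalings, limma voom on the recovered reads, a replicate block, fits of 2 groups, T-mDC samples 2 and 3 as 1 sample, each sample left out and, chosen after seeing the data, T-DC samples 2 and 3 left out, where the lone T-DC sample was assumed to vary like the other groups.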

Additional observations from a re-analysis of the deposited data

Results flagged for a closer look

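A single row that is not annotated as protein_coding met the numbers of the rule. Gm7336, a processed pseudogene on chromosome 7, had a leukemic to N-mDC ratio of 2.16. It was at 6.801, 6.10 and 5.72 FPKM among N-mDCs, 13.3, 12.3 and 11.2 FPKM among T-DCs and 11.9, 15.2 and 16.4 FPKM among T-mDCs, so all leukemic samples lay above all normal ones.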

How the results depend on the processing

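The number of genes that met the rule was 20. It became 5 with a lowest leukemic value of at least 10 FPKM, 72 with the lowest leukemic value at least 25% above the highest N-mDC, 5 with a ratio of at least 2, 11 with means within 1.5 times, 40 after rescaling to TPM (16 shared, without Zdhhc6, Zfp971, Zfand4 and Zbtb5) and 35 with T-DC sample 1 alone (18 shared, without Nupr1 and Zfp971), and ranged from 18 to 38 when 1 sample was left out: 35 without N-mDC 1, 31 without N-mDC 2, 38 without T-DC 1 (which lost Haspin) and 18 without T-mDC 1 (which lost Nxpe4 and Nupr1). Genes called in T-DCs against N-mDCs numbered 2096, and became 1378 with a replicate block, 1070 with only the compared groups, 1394 with T-mDC samples 2 and 3 averaged, 746 without T-DC samples 2 and 3, and 980 to 5030 when 1 sample was left out (980 without N-mDC 1, 5030 without T-DC 1). Those called in T-mDCs against N-mDCs numbered 282, and in the same order became 78, 850, 23, 849 and 23 to 1022 (23 without T-mDC 3, 1022 without T-DC 1), with 107 at a pseudocount of 0.1, 111 with a filter of 5 FPKM and 173 by limma voom. Those called between T-DCs and T-mDCs numbered 1813, and became 1190 with a filter of 5 FPKM, 1253 with the block, 1036 with only the compared groups, 540 with T-mDC samples 2 and 3 averaged, 741 without T-DC samples 2 and 3, and 541 to 4475 when 1 sample was left out (541 without T-mDC 3, 4475 without T-DC 1). The causes were not tested. Rescaling to TPM shifted the median log2 fold change of all genes from 0.05 to -0.07, from 0.03 to 0.21 and from 0.07 to -0.23 in the 3 comparisons, and the higher calls from 88 of 282 to 96 of 205 in T-mDCs against N-mDCs and from 693 of 1813 to 443 of 1993 between T-DCs and T-mDCs (476 of 1921 by limma voom). Samples that share a number correlated at -0.47 to 0.27 in their deviations. With 3 samples in each group, this cannot decide whether the numbers pair samples, and the labels do not say. Over 19 settings, fold changes of the 20 genes against N-mDCs kept their side of the threshold in 629 values, lost a call in 91, gained 1 in 36 and reversed in 0, a direction that the rule fixed for most settings; of 46 partner calls, 584 values kept and 283 lost the call, and none reversed. At most 30 reads lay behind an N-mDC value of Hist1h2bg, which limits its ratio.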
